A study of Mus musculus with 18 samples.

Results

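The comparison described here set USF-depleted cells (USFKD, 3 arrays) against scrambled-shRNA control cells (sshRNA, 3 arrays) 7 days after a 5 Gy dose of ionizing radiation. These 6 arrays were chosen by their titles from the 18 of the series, which also holds 3 arrays of each line without irradiation (no IR) and 3 of each at 1 day. Both lines derive from M12-5B3, a p53-deficient mouse B lymphoma line held at the germinal centre stage, which carries tetracycline-controlled Rag1 and GFP-Rag2 transgenes that were kept silent in every group. USFKD cells were stably transduced with lentiviral shRNAs against Usf1 (2 hairpins) and Usf2 (1 hairpin), sshRNA cells with a scrambled hairpin, and both were selected with puromycin and isolated as clones. The 3 samples of a group are called cultures, replicates and clones in the study's own text, so the p-values below measure the spread between these samples, and a difference that belongs to the clones and one that follows the knockdown cannot be told apart.

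USF1 and USF2 are ubiquitous basic helix-loop-helix factors that bind the E-box CACGTG, mostly as a heterodimer. The same motif is read by MYC-MAX, by the MiT factors that drive lysosomal genes, and by several circadian and hypoxia factors. In B cells, E-box factors act beside ETS, PAX and IRF factors at immunoglobulin, antigen-presentation and signalling genes.

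A whole-transcriptome array reported a log2 intensity for each of 65956 transcript clusters, of which 30638 carried a single gene symbol, and each of 30176 genes was represented by its brightest cluster. A difference is given as USFKD minus sshRNA on the log2 scale with its standard error (SE), and it was called when limma's adjusted p was under 0.05 and the fold change over 1.5. The dim limit, 4.66 on the log2 scale, is the level under which 95 percent of olfactory and vomeronasal receptor genes lay. A gene is counted as above it when the brighter of its 2 group means at 7 days exceeds it. At 7 days, 1844 clusters were called higher in USFKD (2.8 percent of all) and 2406 lower (3.65 percent). Among genes, 1156 were called higher (3.83 percent) and 1518 lower (5.03 percent). Of 19050 protein-coding genes, 1017 were higher (5.34 percent) and 739 lower (3.88 percent). Of the 10736 above the dim limit, 9.41 percent were higher and 6.79 percent lower. The counts of gene lists below are to be read against these shares. Changes were mostly moderate: 317 genes were higher and 542 lower by over 2-fold, 7 and 9 of them by over 8-fold. The 3 arrays of each line did not overlap in 98.3 percent of genes called higher and 98.4 percent of those called lower.

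The array's own control probe sets moved too. Among 6732 control rows, 313 were called higher and 226 lower (8.01 percent of them, against 6.44 percent of transcript clusters). Negative controls gave 183 higher and 117 lower of 5222 rows (5.74 percent) and positive controls 129 and 105 of 1324 (17.7 percent). The 6 arrays correlated at 0.9916 to 0.9940 within a line and at 0.9855 to 0.9898 between lines, across clusters. These ranges do not show how far single arrays moved the counts, which is given below.

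**Figure D1:**
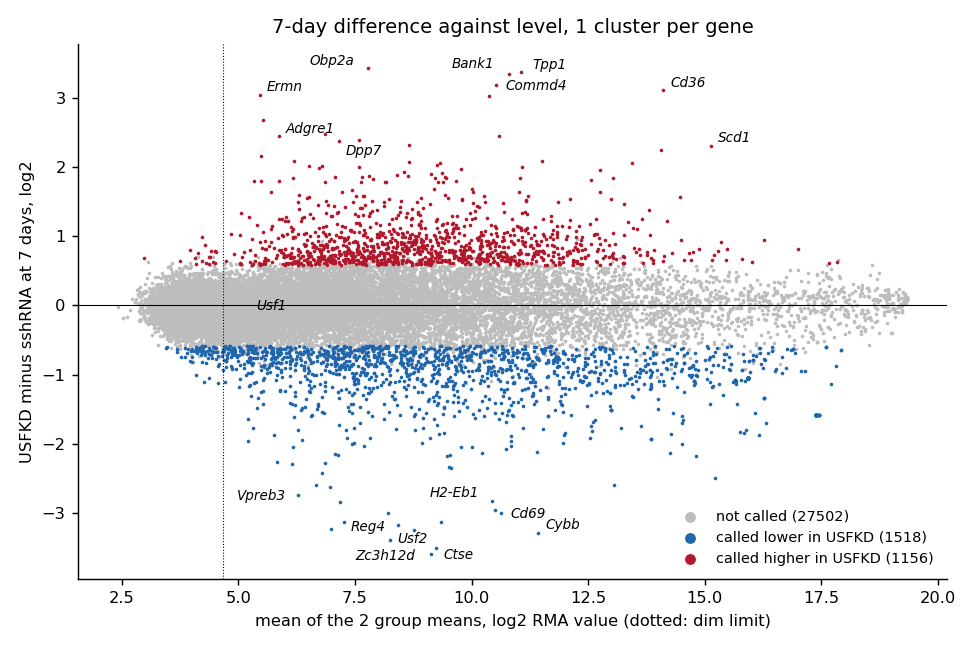
Difference between USFKD and sshRNA at 7 days (y axis, log2) against the mean of both group means (x axis, log2 RMA value), 1 point per gene. Red points are the 1156 genes called higher, blue points the 1518 called lower, and the dotted line is the dim limit at 4.66. Of the calls, 1147 higher and 1480 lower genes lie above the dim limit, and Usf1 lies near the zero line while Usf2 is among the lowest points.

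The targeted genes checked the labels. Usf2, 1 of the 2 factors knocked down, had levels of 10.04, 9.62 and 10.15 in control cells and 6.42, 6.62 and 6.62 after knockdown. All 3 USFKD values lay far below the lowest control, a 10.5-fold difference (-3.39, SE 0.16, adjusted p = 4.84e-09). A second, dimmer Usf2 cluster was also lower (-1.98, SE 0.11).

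Usf1 did not separate the lines: its cluster measured 5.23, 5.35 and 5.27 in the sshRNA arrays against 5.31, 5.17 and 5.03 in USFKD. The arrays overlapped and the difference of -0.11 (SE 0.08) was not called (adjusted p = 0.43). Its level was little above the dim limit in all 6 arrays, and the array does not measure protein. The study's own Western blot of nuclear protein showed both USF1 and USF2 reduced in USFKD cells. That blot screened the stable clones, with no irradiation stated, so it does not give protein levels at 7 days. The sense stems of both Usf1 hairpins are shown, 5′ to 3′, because they define the intended knockdown.
USF1shR1: cagaagttaagatgcgtacct
USF1shR2: gagggctcaacataacgaagt

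Among 24 measured E-box factors, 4 were higher and 1, Usf2, lower, with a median difference of 0.13 against -0.05 over all genes. Bhlhe40, a circadian and stress-induced repressor of E-boxes, had levels of 6.81, 6.82 and 6.96 in control cells and 8.65, 8.93 and 8.63 after knockdown (1.87, SE 0.14, adjusted p = 6.55e-07). Max, the obligate partner of MYC, and Mxd4 and Mxi1, which compete with MYC for MAX, were 0.79, 0.76 and 0.66 higher. Myc itself differed by 0.23, Tfeb by 0.22 and Tfe3 by 0.07, none of them called.

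The 15 largest increases, taken only from genes without overlap between the lines, ranged from 2.31 to 3.43. Tpp1, a lysosomal tripeptidyl peptidase, measured 9.42, 9.49 and 9.24 in the sshRNA arrays against 12.56, 12.81 and 12.88 in USFKD, a 10.3-fold difference (3.37, SE 0.15, adjusted p = 3.35e-09). Bank1, a B cell scaffold that links the antigen receptor to calcium release, read 9.33, 9.04 and 9.04 against 12.25, 12.60 and 12.60 (3.35, SE 0.13, adjusted p = 1.67e-09). Cd36, a scavenger receptor that takes up fatty acids, was already bright in control cells at 12.72, 12.49 and 12.45 and reached 15.79, 15.68 and 15.51 in USFKD (3.11, SE 0.13). In none of these 3 genes did any array of one line come within 2 log2 units of the other line.

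The lipocalin genes Obp2a and Lcn10, both on chromosome 2, were 10.7-fold and 8.14-fold higher. Obp2a had levels of 5.92, 6.29 and 5.97 in control cells and 9.73, 9.47 and 9.26 after knockdown. Commd4, of a family that sorts membrane proteins, was 9.10-fold higher, and Ermn, a cytoskeletal protein best known from myelin, went from 3.93, 3.93 and 3.96, under the dim limit, to 6.83, 7.12 and 7.01. Fcgr2b, the inhibitory Fc receptor of B cells, read 9.50, 9.29 and 9.34 against 11.66, 11.84 and 11.97 (2.45, SE 0.11, adjusted p = 3.35e-09). The other leading increases were Vmn1r79 (2.67), a vomeronasal receptor, Adh7 (2.48), an alcohol dehydrogenase that oxidises retinol, Adgre1 (2.44), the F4/80 antigen, the predicted gene Gm4875 (2.39), the lysosomal peptidase Dpp7 (2.38), the F-box gene Fbxo33 (2.31) and Scd1 (2.31), the desaturase that makes monounsaturated fatty acids.

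Among the largest decreases, Zc3h12d, an RNA-degrading zinc finger protein that restrains lymphocyte activation, measured 10.99, 10.56 and 11.23 in the sshRNA arrays against 7.54, 7.30 and 7.14 in USFKD, a 12.1-fold difference (-3.60, SE 0.16, adjusted p = 3.32e-09). Ctse, an endosomal aspartic protease, read 11.05, 11 and 10.93 against 7.17, 7.49 and 7.81 (-3.50, SE 0.17). Klhl6, a ubiquitin ligase adaptor of germinal centre B cells, read 10.44, 10.25 and 10.48 against 7.33, 7.02 and 7.09 (-3.24, SE 0.12). The lines were fully apart in all 3 genes, as the rule for leading genes required.

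Cybb, the catalytic subunit of the phagocyte NADPH oxidase, fell from 13.19, 13.19 and 12.84 in sshRNA to 9.52, 10.01 and 9.81 in USFKD (-3.29, SE 0.20, adjusted p = 1.14e-07). Cd69, an early activation antigen that holds lymphocytes in tissue, read 12.11, 12.34 and 11.97 against 8.96, 9.01 and 9.46 (-3.0, SE 0.30, adjusted p = 1.07e-05). Vpreb3, a chaperone of immunoglobulin light chains, had a difference of -2.73, and its control arrays spread from 7.14 to 8.18. The remaining leading decreases were Sh2d1b1 (-3.23), an adaptor of SLAM receptors with a close paralog on the array, Reg4 (-3.18), a secreted lectin, the kinase gene Map3k15 (-3.13), the mucin-like Parm1 (-3.13), the non-coding Platr14 (-2.95), the unnamed transcript A630095E13Rik (-3.0), and Mid2 (-2.84), a microtubule-bound ubiquitin ligase. Sh2d1b1 and its paralog Sh2d1b2 (-1.01) may share probes.

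**Figure D2:**
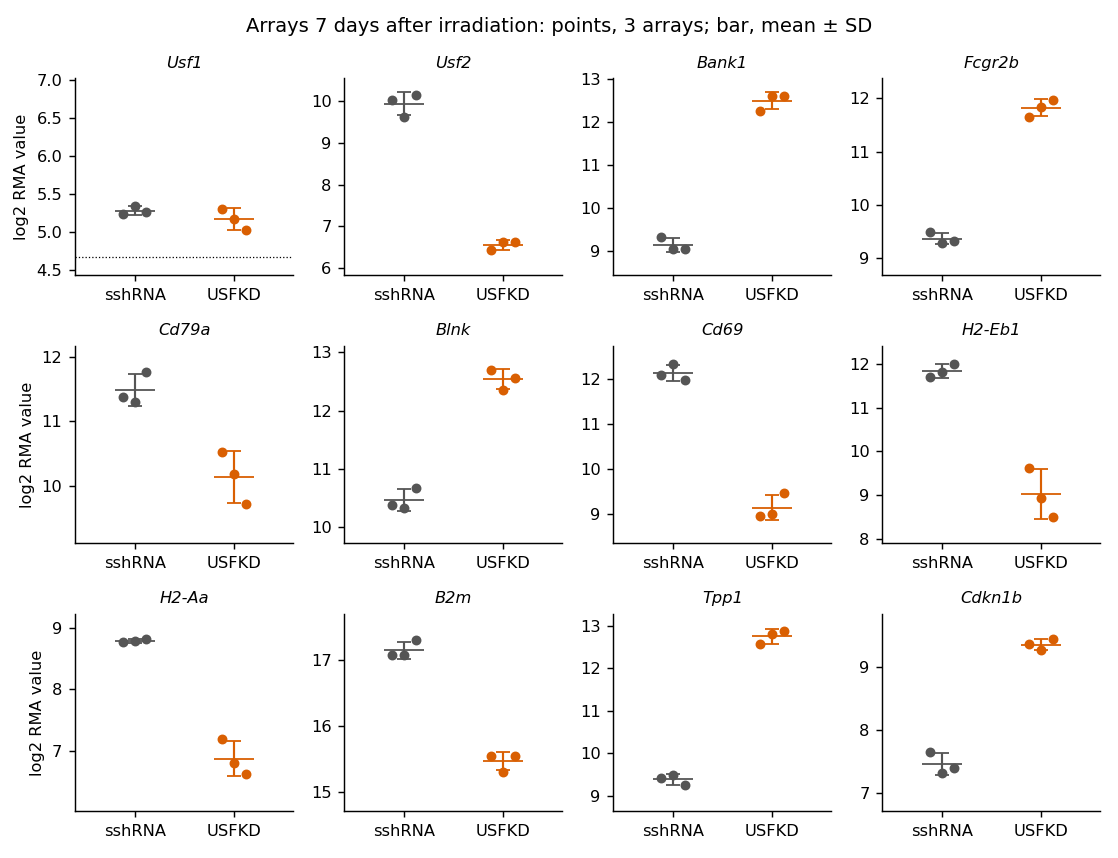
Log2 RMA value of 12 genes in the 6 arrays at 7 days (points), with the mean and SD of each line's 3 arrays (bar and whiskers); the dotted line, seen for Usf1, is the dim limit at 4.66. The y axes differ between genes and do not start at 0. Only Usf1 overlaps between sshRNA and USFKD among these genes.

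Every called gene of the MHC class II and class I lists was lower in USFKD, 15 in all. Of 14 measured genes of MHC class II, 9 were called lower and none higher, with a median difference of -1.0, where 5.03 percent of all genes were lower and the median was -0.05. H2-Eb1, the beta chain of I-E, had levels of 11.70, 11.81 and 12.01 in control cells and 9.63, 8.93 and 8.50 after knockdown (-2.82, SE 0.20, adjusted p = 4.39e-07). All USFKD arrays were lower, with an SD of 0.57 against 0.15 in control cells.

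H2-DMb2, a subunit of the peptide editor H2-DM, had a difference of -2.17, at 10.54, 10.53 and 10.63 against 8.72, 8.37 and 8.11. H2-Aa, the I-A alpha chain, read 8.77, 8.78 and 8.83 against 7.19, 6.81 and 6.62 (-1.92, SE 0.16), and H2-Ea, the I-E alpha chain, 14.01, 14.03 and 14.25 against 12.64, 12.20 and 12.11 (-1.78, SE 0.13). The chain gene H2-Ab1 (-1.64), the editors H2-DMb1 (-1.51) and H2-DMa (-1.29), and H2-Eb2 (-0.61) were lower as well. Ciita, the coactivator that switches the class II genes on, differed by -0.71 (SE 0.13, adjusted p = 0.00233). The editors of B cells H2-Oa (-0.35) and H2-Ob (-0.29) and the promoter-binding factors Rfx5 (0.11), Rfxap (-0.09) and Rfxank (0.11) were not called. H2 genes are close paralogs, so probes may be shared among them.

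Class I followed with 6 of 16 genes lower and none higher, and a median of -0.48. B2m, the light chain common to all class I molecules, measured 17.08, 17.09 and 17.31 in the sshRNA arrays against 15.54, 15.31 and 15.54 in USFKD (-1.70, SE 0.24, adjusted p = 0.000253). The heavy chains H2-D1 and H2-K1 had differences of -1.56 and -1.41, and H2-K1 read 11.33, 11.32 and 11.36 against 10.29, 9.78 and 9.72. H2-M3 (-1.30), a heavy chain for formylated peptides, the immunoproteasome subunit gene Psmb10 (-1.15) and H2-Q4 (-0.98) completed the group. The peptide transporter genes Tap1 (-0.13) and Tap2 (0.02) were not called.

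**Figure D3:**
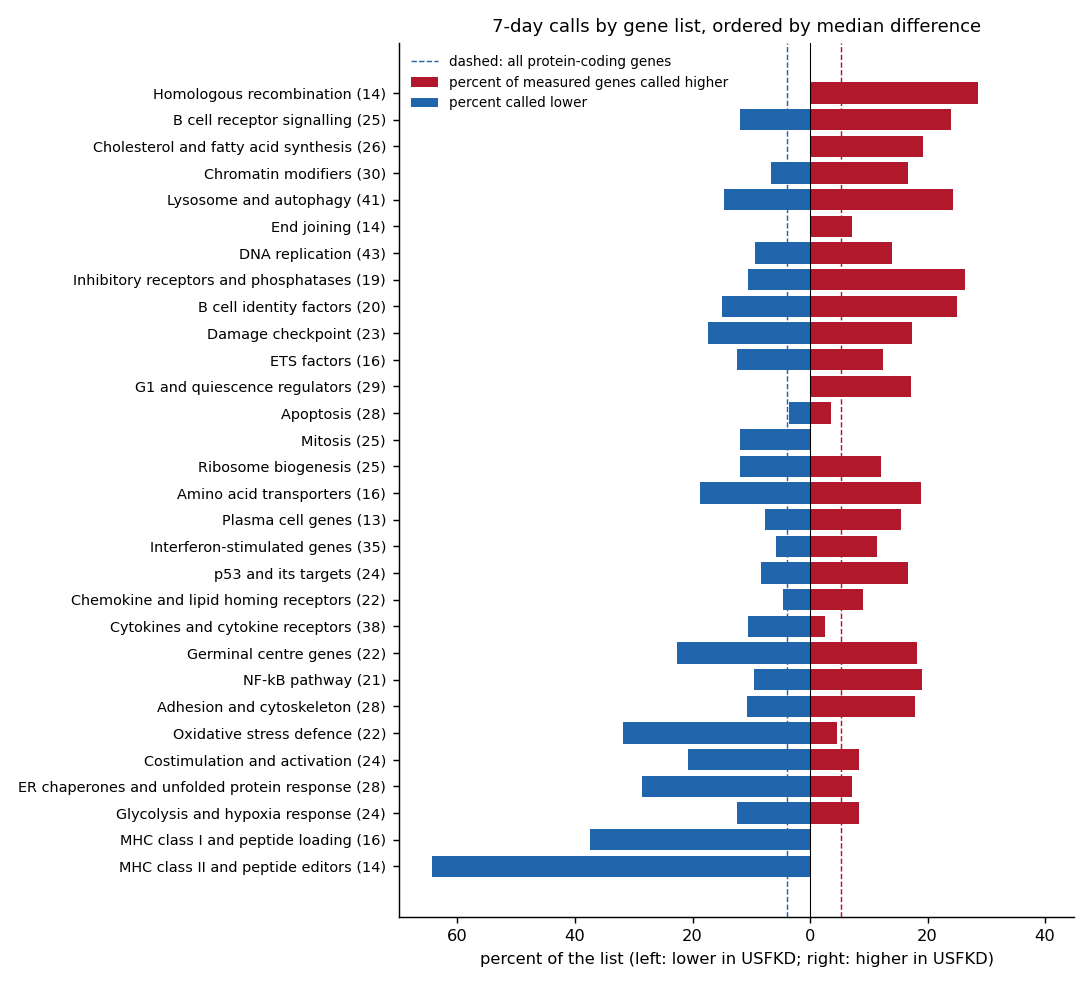
Percent of each gene list called higher (red, right) or lower (blue, left) in USFKD at 7 days, with the number of measured genes in parentheses and the lists ordered by median difference. Dashed lines give the shares among all protein-coding genes, 5.34 and 3.88 percent. Among those above the dim limit, where most listed genes lie, the shares were 9.41 and 6.79 percent, which are not drawn. The E-box factors, the RT-qPCR panel and the marker lists are left out. MHC class II has the longest bar to the left, with 9 of 14 genes.

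B cell receptor signalling split: 6 of 25 genes were higher and 3 lower, with a median of 0.28. Beside Bank1, the adaptor gene Blnk had levels of 10.38, 10.32 and 10.68 in control cells and 12.71, 12.36 and 12.57 after knockdown (2.09, SE 0.22, adjusted p = 1.75e-05), and the Src-family kinase gene Blk 6.22, 6.02 and 6.14 against 7.84, 7.76 and 7.30 (1.51, SE 0.24). Pik3r1 (0.66), Rasgrp3 (0.69) and Inpp5d (0.63) were higher by less. The receptor's own signalling chain gene Cd79a was lower, at 11.38, 11.30 and 11.76 against 10.52, 10.18 and 9.71 (-1.34, SE 0.22, adjusted p = 0.000937), as were the kinase genes Btk (-1.01) and Fyn (-0.99). Its partner Cd79b differed by -0.49, with no call.

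Inhibitory receptors and phosphatases gave 5 higher and 2 lower of 19. Ptpn14, a tyrosine phosphatase, measured 5.13, 5.13 and 5.19 in the sshRNA arrays against 7.33, 7.16 and 7.23 in USFKD (2.09, SE 0.10), and Cd300a, an inhibitory receptor for phospholipids, 5.82, 5.53 and 5.90 against 8.10, 7.57 and 7.51 (1.98, SE 0.18). Ptpn22 (1.28) and Cd72 (1.01) were higher with Fcgr2b. Btla, an inhibitory receptor of the CD28 family, was lower at 12.72, 12.77 and 12.44 against 11.14, 11.46 and 11.48 (-1.28, SE 0.11), and so was Lilrb4a (-1.26).

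Costimulatory genes leaned down, with 5 lower and 2 higher of 24. Cd40 (-1.04), the receptor for T cell help, Cd86 (-0.83), a ligand of CD28, and Icosl (-1.55), the ligand of ICOS, were lower with both Sh2d1b genes. Tnfsf9, the 4-1BB ligand gene, went the other way, from 5.24, 5.37 and 5.93 to 7.70, 7.43 and 7.44 (2.01, SE 0.19, adjusted p = 6.47e-06), and Cd83 was 1.05 higher.

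Transcription factors of B cell identity were 5 higher and 3 lower of 20. Irf4, which drives class switching and plasma cell fate, had levels of 7.37, 7.32 and 7.53 in control cells and 8.88, 9.01 and 8.65 after knockdown (1.44, SE 0.16, adjusted p = 3.33e-05), while Irf8, which acts in germinal centre cells, read 12.05, 12.01 and 12.16 against 11.01, 10.66 and 10.42 (-1.38, SE 0.15). Pax5, the commitment factor of the B lineage, was 1.25 higher, and Pou2af1, the octamer coactivator, lower at 15.71, 15.75 and 16 against 14.50, 14.33 and 14.37 (-1.42, SE 0.18). Ikzf3 (0.91), Mef2c (0.79) and Ikzf1 (0.61) were higher and Tcf12 (-0.84) lower. Bcl6 (0.07), Ebf1 (0.01), Foxo1 (-0.00) and Bach2 (0.05) showed no call.

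Germinal centre genes were 4 higher and 5 lower of 22. Rgs13, a brake on chemokine signalling, read 15.71, 15.50 and 14.87 against 13.29, 13.57 and 14.16 (-1.69, SE 0.21), and Tnfrsf13c, the BAFF receptor gene, 8.68, 7.81 and 8.56 against 9.72, 10.15 and 10.23 (1.68, SE 0.27). Msh6 (1.29), a mismatch repair gene that also serves somatic hypermutation, was higher and Rgs1 (-0.86) and Serpina9 (-0.68) lower. Of the ETS factors, Etv6 (1.09) and Elk4 (0.88) were higher and Fli1 (-0.79) and Ets2 (-0.75) lower among 16. Plasma cell genes gave 2 higher, Tram2 (1.51) and Ell2 (0.64), and 1 lower, Sec11c (-0.75), of 13.

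Lymphotoxin and TNF, 3 neighbours within the MHC on chromosome 17, were all lower, and they made up most of the 4 decreases among 38 cytokine genes. The list had 10.5 percent lower and 2.63 percent higher, against 3.88 and 5.34 percent of all protein-coding genes. Ltb measured 8.31, 8.43 and 8.16 in the sshRNA arrays against 6.53, 6.29 and 6.32 in USFKD (-1.92, SE 0.12, adjusted p = 7.95e-08). Tnf read 8.05, 8.05 and 8.14 against 7.07, 6.82 and 6.46 (-1.29, SE 0.19), and Lta had a difference of -1.08. Il6st (0.80), the shared receptor chain of IL-6 cytokines, was the 1 gene of the list called higher. In the NF-kB list, 4 of 21 genes were higher, among them the nuclear regulators Bcl3 (1.44), Nfkbid (1.34) and Nfkbiz (0.78), and Traf1 (-1.23) and Nfkbib (-0.67) were lower.

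Adhesion and cytoskeletal genes were 5 higher and 3 lower of 28. Vim, the intermediate filament of motile cells, had levels of 9.46, 9.26 and 9.73 in control cells and 11.03, 10.98 and 11.19 after knockdown (1.58, SE 0.11, adjusted p = 2.74e-07). Amigo2 (1.84), Myo1g (1.64), the do-not-eat-me signal Cd47 (0.91) and Itga4 (0.73) were also higher. Both chains of the integrin LFA-1, Itgb2 (-0.79) and Itgal (-0.71), and their ligand Icam2 (-0.61) were lower. Among homing receptors, S1pr2 (0.76) and P2ry10 (0.69) were higher beside the decrease of Cd69, the 3 calls of 22.

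Of 15 genes that the study had chosen for RT-qPCR, 11 were measured, 5 were called higher and 5 lower. The study chose the panel for its change between the same lines without irradiation, so it is not independent evidence of direction. Cdkn1b, the cell cycle inhibitor p27, measured 7.66, 7.32 and 7.40 in the sshRNA arrays against 9.36, 9.26 and 9.43 in USFKD (1.89, SE 0.12, adjusted p = 2.06e-07). Maged1, a melanoma-antigen family member on chromosome X, read 7.96, 8.01 and 8.05 against 5.79, 5.57 and 5.38 (-2.43, SE 0.11). Nfkbia, the main NF-kB inhibitor gene, read 9.74, 9.59 and 9.76 against 9.97, 10.08 and 10.59, which do not overlap, but its difference of 0.51 missed the threshold (adjusted p = 0.0512).

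Lysosomal and autophagy genes were changed both ways, 10 higher and 6 lower of 41. Beside Tpp1 and Dpp7, the membrane protein gene Lamp1 was higher at 13.38, 13.63 and 13.71 against 14.98, 14.59 and 14.80 (1.22, SE 0.14, adjusted p = 5.27e-05), as were the protective protein and carboxypeptidase gene Ctsa (1.16), the proton pump subunits Atp6v0d1 (1.06) and Atp6v0a1 (0.76), the calcium channel gene Mcoln1 (0.86), Gabarap (0.71), the asparaginyl endopeptidase gene Lgmn (0.69) and Ctsc (0.59). Lower with Ctse were Atp6v1h (-1.43), the hexosaminidase gene Hexa (-1.38), the autophagy receptor gene Sqstm1 (-1.22), Ctss (-1.15), a protease that trims the class II invariant chain, and Atg7 (-0.62).

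The E-box CACGTG, which reads the same on both strands, was looked for in RefSeq promoter windows (250 bases before to 50 after each start, build GRCm38.p6). Of 17972 genes with a window, 1610 held it in at least 1 (8.96 percent), and of those above the dim limit 11.5 percent. Among genes called higher, 99 of 854 held it (11.6 percent), and among those called lower, 85 of 629 (13.5 percent). Of the 42 targeted, panel and leading genes, 31 had a window and only Dpp7 held the motif. In the lysosome list 11 of 33 genes held it, 6 of 10 called higher, 1 of 4 called lower and 4 of 19 not called, a description without a test.

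The 100 bases before the start are shown, with the motif in capitals, for Dpp7 and for 4 further lysosomal genes that were chosen after their values were seen, because the stretch holds the whole motif and their RNA was higher in USFKD; in Atp6v0d1, the remaining such gene, the motif runs across the start. Dpp7 lies at chr2:25356333-25356432 on the minus strand, Lamp1 at chr8:13159061-13159160 and Mcoln1 at chr8:3500419-3500518 on the plus strand, Ctsa at chr2:164833673-164833772 on the plus strand, and Lgmn at chr12:102439093-102439192 on the minus strand.
Dpp7: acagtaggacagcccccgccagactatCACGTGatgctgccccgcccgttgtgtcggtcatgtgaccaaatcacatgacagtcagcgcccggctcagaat
Lamp1: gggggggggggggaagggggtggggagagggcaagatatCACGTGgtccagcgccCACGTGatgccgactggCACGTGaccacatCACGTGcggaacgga
Mcoln1: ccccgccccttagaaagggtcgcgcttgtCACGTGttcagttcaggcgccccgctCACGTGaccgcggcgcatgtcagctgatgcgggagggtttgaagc
Ctsa: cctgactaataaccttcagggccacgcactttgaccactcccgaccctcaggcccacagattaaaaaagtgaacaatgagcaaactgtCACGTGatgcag
Lgmn: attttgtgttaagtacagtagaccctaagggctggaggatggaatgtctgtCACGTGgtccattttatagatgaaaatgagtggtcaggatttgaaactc

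Lamp1 carries 4 copies, which begin 61, 45, 28 and 15 bases before the start, Mcoln1 2 copies at 71 and 45, Dpp7 a copy at 73, Lgmn at 49 and Ctsa at 12, with a further Ctsa copy just past the start. A match says only that these letters are present, and binding was not measured. Dpp7 had levels of 5.91, 5.98 and 6.0 in control cells and 8.38, 8.42 and 8.23 after knockdown (2.38, SE 0.15, adjusted p = 1.39e-07). Mcoln1 read 5.97, 6.01 and 6.05 against 6.87, 6.86 and 6.87, and Ctsa 8.30, 8.27 and 8.34 against 9.62, 9.38 and 9.39. In all 5 genes the lines did not overlap, as in 98.3 percent of all genes called higher.

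Sterol and fatty acid synthesis gave 5 higher and none lower of 26. Scd1 measured 13.98, 13.71 and 14.23 in the sshRNA arrays against 16.66, 16.39 and 15.80 in USFKD (2.31, SE 0.18, adjusted p = 9.52e-07). Hmgcs1, which makes the precursor of mevalonate, read 13.76, 13.75 and 13.57 against 15.70, 15.46 and 14.63 (1.57, SE 0.19), followed by Idi1 (0.79), Dhcr7 (0.76) and Fdft1 (0.60). The count depends on single arrays, since USFKD replicate 3 was the lowest of its line in these named genes: it was 9 without that array, 2 without USFKD replicate 1 and 3 without USFKD replicate 2.

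Genes of the endoplasmic reticulum and its stress response were 8 lower and 2 higher of 28. Derl1, which exports misfolded proteins, had levels of 15.03, 15.19 and 15.06 in control cells and 13.74, 13.44 and 13.42 after knockdown (-1.56, SE 0.10, adjusted p = 2.1e-07), and Herpud1, of the same degradation complex, 13.16, 13.26 and 13.15 against 11.68, 11.65 and 11.89 (-1.45, SE 0.15). Trib3 (-1.22), Asns (-0.93), Hyou1 (-0.81), Sel1l (-0.73) and Edem1 (-0.65) were lower, and P4hb (1.10) and Dnajb9 (0.84) higher. Ddit3, the stress factor CHOP, had a difference of -1.25 with an SE of 0.37, and its call was lost without any of 5 of the 6 arrays (adjusted p 0.0553 to 0.129). Limited to the 6 arrays compared, the list had 5 genes lower.

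Oxidative defence and production genes were 7 lower and 1 higher of 22. Sod1, the cytosolic superoxide dismutase, read 15.16, 15.09 and 15.22 against 14.63, 14.17 and 14.00 (-0.89, SE 0.13), and Gpx1, a glutathione peroxidase, 15.18, 15.18 and 15.40 against 14.83, 14.27 and 13.91 (-0.92, SE 0.19). Slc7a11 (-0.86), which imports cystine, Gpx4 (-0.66), Cyba (-0.65), the partner of Cybb, and Txnrd1 (-0.61) were also lower, and Cat, catalase, was 0.84 higher. The number called lower was 4 without USFKD replicate 3 and 2 when only the 6 arrays compared entered the fit.

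Of 24 glycolytic and hypoxia genes, 2 were higher and 3 lower. Eno3 (1.84) and Aldoc (1.25), the muscle and brain isoforms of their enzymes, were higher, while Ndrg1 (-1.19), Pgk1 (-1.09) and Ero1a (-1.05) were lower. Without USFKD replicate 1, 5 were lower. Amino acid transporters gave 3 each way of 16: Slc7a7 measured 11.60, 11.60 and 11.78 in the sshRNA arrays against 13.55, 13.49 and 13.39 in USFKD (1.82, SE 0.11, adjusted p = 6.31e-08), and Slc38a9 (0.89) and Slc36a1 (0.72), which sense and export lysosomal amino acids, were higher too. Slc7a8 (-1.25), Slc7a5 (-1.17) and Slc6a9 (-0.73) were lower.

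Among DNA damage genes, homologous recombination stood at 4 higher and none lower of 14, with a median of 0.53. Brca1 had levels of 7.86, 7.72 and 7.71 in control cells and 9.12, 9.08 and 8.86 after knockdown (1.26, SE 0.08, adjusted p = 1.73e-07), and Xrcc3 (1.26), Brca2 (0.78) and Rad50 (0.61) were higher. Brca1 and Rad50 lie on chromosome 11 and Xrcc3 on chromosome 12, where 20.3 and 27.3 percent of protein-coding genes above the dim limit were higher. Without sshRNA replicate 1, 7 genes of the list were higher. End joining gave 1 call of 14, Poll (0.59), a polymerase that fills gaps at joined ends, and it lay just past the fold threshold.

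Checkpoint genes were 4 higher and 4 lower of 23. Chek2, a kinase that halts the cycle after breaks, was 0.81 higher, with Rad9a (0.65), Hus1 (0.64) and Rnf168 (0.61), and Brcc3 (-1.02), Tipin (-0.88), the upstream kinase gene Atr (-0.80) and Babam2 (-0.68) were lower. The count called higher was 2 without sshRNA replicate 1 or USFKD replicate 1, 1 without USFKD replicate 2, and 0 with only the 6 arrays compared. Of 24 p53 pathway genes, Btg2 (1.52), Ccng1 (1.25), Polk (1.05) and Mdm2 (0.69) were higher and Gadd45a (-0.80) and Mdm4 (-0.71) lower, and of the latter 2 calls none was left without sshRNA replicate 2 or with only the 6 arrays compared. Gadd45a also lost its call without sshRNA replicate 1, USFKD replicate 1 or USFKD replicate 2 (adjusted p 0.066 to 0.0782), which left 1 gene lower. Cdkn1a, the canonical p53 target p21, differed by -0.45 and was not called. In the apoptosis list of 28, Mcl1 (0.81), a survival factor, was higher and Ripk3 (-1.49), a kinase of necroptosis, lower. That is 3.57 percent each way, below the shares over all protein-coding genes.

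Cell cycle inhibitors and G1 genes were 5 higher and none lower of 29. Beside Cdkn1b, Ccne2, a G1 cyclin, measured 8.43, 8.19 and 8.12 in the sshRNA arrays against 9.49, 9.50 and 9.65 in USFKD (1.30, SE 0.09, adjusted p = 2.91e-07), with Tob1 (1.03), E2f3 (0.86) and E2f7 (0.80). Replication genes were 6 higher and 4 lower of 43 (14 and 9.3 percent). Over protein-coding genes above the dim limit these shares were 9.41 and 6.79 percent. The replication genes were led by Mcm3, a subunit of the replicative helicase, at 11.69, 11.75 and 11.65 against 10.23, 10.24 and 9.84 (-1.59, SE 0.17). Of 25 mitotic genes, Cdc20 (-0.88), Cenpa (-0.73) and Bub1b (-0.63) were lower (12 percent). Cdc20 spread from 8.49 to 9.89 in USFKD, and the mitotic count was 1 without USFKD replicate 3 or sshRNA replicate 3, 5 without USFKD replicate 1, and 0 with the 6 arrays alone.

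Interferon-stimulated genes were 4 higher and 2 lower of 35 (11.4 and 5.71 percent). Over all protein-coding genes these shares were 5.34 and 3.88 percent, and over those above the dim limit 9.41 and 6.79 percent. Stat2 (1.16), Samhd1 (0.83), Irgm1 (0.63) and Ifih1 (0.60) were higher and Phf11a (-1.43) and Phf11b (-1.36), close paralogs, lower. The number higher was 2 without sshRNA replicate 3 or USFKD replicate 2. Chromatin modifiers were 5 higher and 2 lower of 30, led by Jarid2 (1.35) and Ezh1 (1.16), both of Polycomb complexes. Ribosome biogenesis split 3 and 3 of 25 (12 percent each way), with Pes1 (1.05), Polr1c (0.95) and Ubtf (0.84) higher and Dkc1 (-1.24), Rrn3 (-0.69) and Rrp9 (-0.59) lower, and 1 lower without USFKD replicate 3. None of 14 cytosolic ribosomal protein genes was called by limma.

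Cell type markers were read on the same 6 arrays. Of 10 B cell markers, 9 lay above the dim limit, with group medians of 10.97 in sshRNA and 11.28 in USFKD, and 4 were higher and 1 lower. The exception was Ighm, the mu heavy chain gene, at 4.09 and 3.88. Of 12 myeloid markers, 3 were above the limit and 2 were called, Adgre1 and Cd68, both higher in USFKD. Adgre1 had levels of 4.57, 4.74 and 4.64 in control cells and 7.22, 7.05 and 7.01 after knockdown, and Cd68, a lysosomal glycoprotein, 9.98, 10.10 and 10.55 against 12.32, 11.65 and 11.56. The list's summed level, on the log2 scale, ran from 10.26 to 10.74 in sshRNA and from 11.70 to 12.41 in USFKD, while the defining genes Csf1r, Lyz2, Mpo, Itgam and Fcgr1 were below the limit in both lines. No T cell marker (of 8) was called, and of 8 NK cell markers Prf1 (-1.77) was lower. A part of other cells in these differences was not tested.

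Small structural RNAs accounted for many of the decreases. Of 62 genes that RefSeq marks as rRNA, 51 of them copies of the 5S gene, 59 were lower and none higher. Their median level was 17.92, 18.37 and 18.22 in the sshRNA arrays and 17.04, 15.98 and 16.70 in the USFKD arrays, so all USFKD arrays were lower. Of 915 snRNA genes 282 were lower and 2 higher, and of 955 snoRNA genes 106 were lower and 1 higher. Snord61, a guide for RNA methylation, read 16.18, 16.66 and 16.55 against 14.80, 13.59 and 13.53 (-2.49, SE 0.36, adjusted p = 0.000343).

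The median difference was -1.59 for rRNA genes, -0.37 for snRNA and -0.19 for snoRNA genes, against -0.04 for protein-coding genes. Near-identical copies share probes, and the 59 rRNA decreases came from 20 distinct sets of values. The study extracted total RNA with RNeasy Plus. A part of uneven recovery of small RNAs between preparations was not tested, either in these differences or in their changes with time below. Of 597 miRNA precursor genes, 16 were lower (2.68 percent) and 5 higher, below the shares over all genes. Values above 16, as for 5S, exceed what a 16-bit scanner reads on a log2 scale, and how they arose is not given in the sources used here.

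The question of whether the 7-day difference was already there before irradiation was put to the untreated and 1-day arrays, which share no array with it. No array is labelled as unirradiated at 7 days. A change from untreated to 7 days due to irradiation therefore cannot be told apart from one due to time in culture. Without irradiation 2937 clusters were called between the lines (4.45 percent), and at 1 day 2244 (3.4 percent). Of protein-coding genes called higher at 7 days, 354 of 1017 (34.8 percent) were also called higher without irradiation, which was 64.2 percent of the 551 higher there. Of those called lower, 460 of 739 (62.2 percent) were lower without irradiation, 44.7 percent of the 1029 there. With the 1-day arrays the shared genes were 462 higher (45.4 percent of the 7-day genes and 73.6 percent of the 1-day genes) and 413 lower (55.9 and 61.0 percent). Across 10736 protein-coding genes above the dim limit the 7-day difference correlated with the untreated at 0.709 and with the 1-day difference at 0.817, which are given as a description, since genes are not independent.

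Where the difference itself was tested, 1366 clusters (2.07 percent) differed between 7 days and no irradiation, and 170 (0.258 percent) between 7 days and 1 day. The first count fell to 588 without sshRNA no IR replicate 2, and was 761 without sshRNA no IR replicate 1, 804 without USFKD no IR replicate 3 and 865 without USFKD 7d IR replicate 2. A fit limited to the 12 arrays concerned gave 639. The second ranged from 54 without USFKD 7d IR replicate 2 to 528 without USFKD 7d IR replicate 1, and was 7 in such a fit. Leaving out any other array gave 65 to 145. Among genes, the change was upward in USFKD relative to sshRNA for 616 (2.04 percent) and downward for 321 (1.06 percent), and among protein-coding genes for 509 and 89. Of the 1017 protein-coding genes higher at 7 days, 196 had a called change in the same direction and none in the other. Among the 1017, 3 were called lower without irradiation. Of the 739 lower, 51 changed in the same direction and 33 in the other. Both sets were picked by the same 7-day arrays, which favours changes in the direction of the call, so these counts are no separate evidence.

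Bank1 stood 1.46 higher in USFKD without irradiation, 1.92 at 1 day and 3.35 at 7 days, and the change of 1.89 (SE 0.19) from untreated to 7 days was called (adjusted p = 0.000423). Cd36 went from 1.30 through 1.78 to 3.11, Fcgr2b from 0.90 through 1.35 to 2.45, and Ermn from 1.03 through 1.6 to 3.05. Upk1b, a uroplakin of the tetraspanin family, differed by -0.15 without irradiation and by 1.68 at 7 days, when it measured 9.39, 8.73 and 9.38 in the sshRNA arrays against 10.76, 10.95 and 10.84 in USFKD. Vim (0.19 to 1.58) and Cd47 (0.01 to 0.91) had no call without irradiation either, and their changes of 1.39 (SE 0.15) and 0.89 (SE 0.13) passed the test.

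The MHC class II list had a median difference of -1.02 without irradiation, -0.91 at 1 day and -1.0 at 7 days, with 9 genes lower each time. Within it, H2-Eb1 moved from -1.26 to -2.82 (change -1.56, SE 0.28, adjusted p = 0.0116) and H2-Aa from -0.90 to -1.92, while H2-Eb2 narrowed from -1.34 to -0.61 (change 0.72, adjusted p = 0.0447) and the changes of the other 6 were not called. The class I list had a median of -0.26 without irradiation, -0.31 at 1 day and -0.48 at 7 days, with 3, 3 and 6 genes lower. B2m was already called lower without irradiation (-0.84), and its change to 7 days was not called. H2-D1 stood at -0.30, H2-K1 at -0.21 and H2-M3 at -0.23 without irradiation, none called. At 1 day H2-D1 (-0.73) and H2-K1 (-0.64) were called lower. All 3 changes from untreated to 7 days were called (-1.26, -1.20 and -1.07), and 1 other gene of the list had a called positive change. Cd69 moved from -0.96 to -3.0 (change -2.04, SE 0.42, adjusted p = 0.0209), and Tnf from 0.20 to -1.29 (change -1.49, SE 0.27, adjusted p = 0.0111). Usf2 itself differed more at 7 days, at -2.15 without irradiation, -1.95 at 1 day and -3.39 at 7 days (change -1.24, SE 0.22, adjusted p = 0.0115), since its sshRNA mean was 9.04 without irradiation and 9.94 at 7 days and its USFKD mean 6.89 and 6.55.

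Narrower differences were seen for Rgs13, from -3.43 to -1.69 (change 1.74, SE 0.29), for the amino acid transporter gene Slc7a8, from -3.20 to -1.25 (change 1.94, SE 0.15, adjusted p = 0.000177), and for the zinc finger gene Zfp979, from -2.94 to -1.25. Ctse narrowed from -4.78 to -3.50. Directions were opposite for 12 genes, of which 8 were snRNA or snoRNA genes, higher in USFKD without irradiation and lower at 7 days. Among these, Rnu3b1, Rnu3b2 and Rnu3b3 gave the same values, so the 8 are not separate measurements. The 7-day calls of Gm22980 and Gm24136 were lost under several alternatives. Rnu3b4, a U3 copy, differed by 1.03 and then by -0.89. Cat, chosen here after its values were seen, differed by -0.61 without irradiation and by 0.84 at 7 days, with sshRNA means of 13.87 and 11.79 and USFKD means of 13.26 and 12.63.

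**Figure D4:**
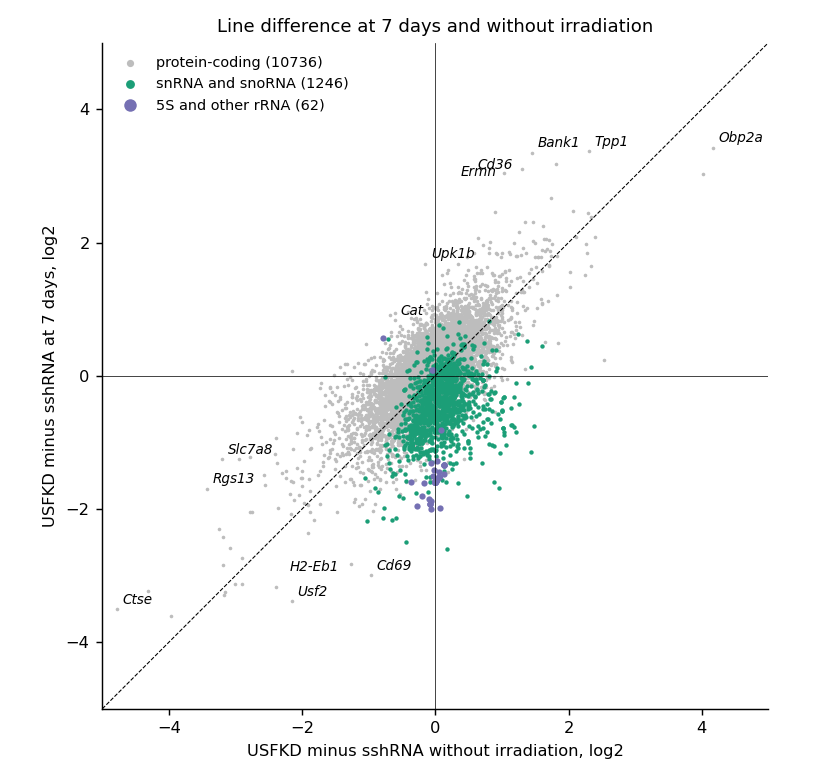
Difference between USFKD and sshRNA at 7 days (y axis, log2) against the difference without irradiation (x axis, log2), 1 point per gene: 10736 protein-coding genes above the dim limit (grey), snRNA and snoRNA genes above it (green) and 62 rRNA genes (purple). On the dashed diagonal both differences are equal. Most rRNA points lie near 0 on the x axis and well below 0 on the y axis, with a median of -1.59.

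For the rRNA genes the lines were alike without irradiation and apart at 7 days. Their median level was 14.50 in sshRNA and 14.51 in USFKD without irradiation, 16.57 and 15.94 at 1 day, and 18.17 and 16.58 at 7 days. The median difference was thus -0.00, -0.61 and -1.59 at these times, and 7 of the 62 genes were called for the change from untreated to 7 days, all negative.

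Calls were spread unevenly over the chromosomes. Among the 10736 protein-coding genes above the dim limit, 9.41 percent were higher and 6.79 percent lower, with a median difference of 0.01. On chromosome 12, 100 of 366 genes were higher (27.3 percent) and 3 lower, with a median of 0.32, and on chromosomes 13 and 11 the shares higher were 21.7 and 20.3 percent. On chromosome X, 117 of 345 genes were lower (33.9 percent) and 12 higher, with a median of -0.31. Chromosomes 9, 10 and 16 followed with 15.1, 13.5 and 13.4 percent lower.

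Without irradiation the medians of these chromosomes were 0.24 on 12, 0.20 on 11, 0.08 on 13, -0.49 on X, -0.28 on 9, -0.27 on 16 and -0.15 on 10, where that over all chromosomes was -0.02. Of the genes named above, Brcc3, Btk, Cybb, Dkc1, Map3k15, Maged1, Mid2, Pgk1 and Snord61 were among those lower on X, while P2ry10, also on X, was higher. Brca1, Rad50, Cd300a, Myo1g, Ccng1, Eno3 and Cd68 were higher on chromosome 11, Xrcc3, Max and Fbxo33 on 12, and Irf4, Polk, Hmgcs1, Idi1 and Jarid2 on 13. The shares and medians carry no test, and the part of chromosome position in single differences was not tested.

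**Figure D5:**
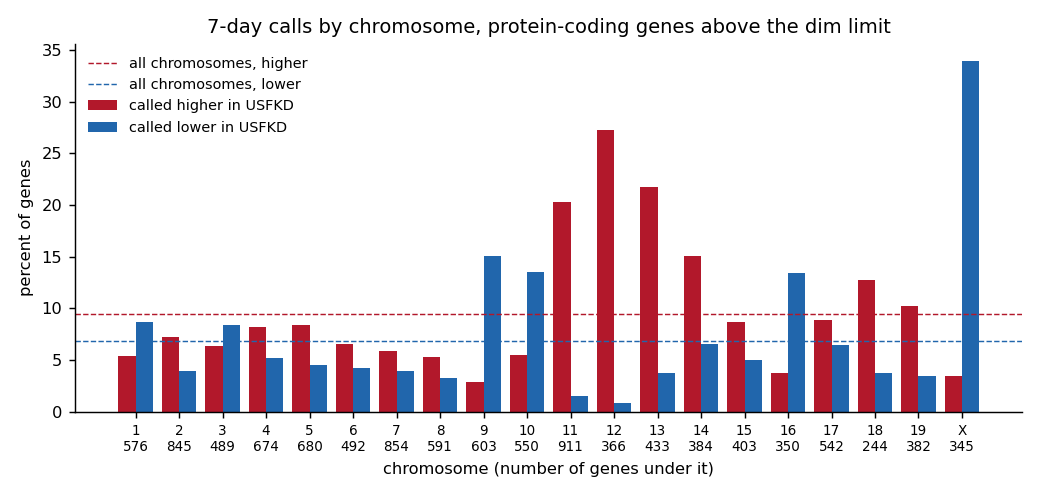
Percent of protein-coding genes above the dim limit called higher (red bars) or lower (blue bars) in USFKD at 7 days, by chromosome, with the number of genes under each. Dashed lines give the shares over all chromosomes, 9.41 and 6.79 percent. Chromosomes 11, 12 and 13 have the tallest red bars and X the tallest blue bar, at 33.9 percent.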

How the data were processed

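The values analysed were the deposited log2 intensities of 18 Affymetrix Mouse Transcriptome 1.0 arrays, which the authors had background-adjusted, quantile-normalized and summarised by RMA (Expression Console is named in the submitters' processing notes, with no version). Quantile normalization gives all arrays the same distribution, so a shift common to most transcripts would not appear. Group means of the 6 groups were fitted over all 18 arrays with limma 3.58.1 in R 4.3.3 (12 residual degrees of freedom), and p-values were adjusted by Benjamini-Hochberg over all 72688 rows, controls included. With 3 arrays per group, their number limits the precision. On simulated arrays, 94 and 98 percent of 4-fold decreases and increases of the 7-day difference were recovered, and 54 and 76 percent of 2-fold ones. Only 200 of 72688 rows were changed there, 50 for each size and direction, with independent normal noise. Far more rows were called in the data, so these shares need not hold for them.

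Genes were named from the platform annotation and RefSeq tables: 2176 clusters carried several symbols and 33142 none, and neither kind was named, so some listed genes (99 of 891) were not analysed here. The text names Usf1, Usf2, the RT-qPCR panel, up to 15 largest increases and decreases without overlap, up to 4 called genes per list, up to 8 genes each way for the change against untreated cells and up to 4 with opposite calls, and further list members by their difference only. The members and the 38 lists were chosen with earlier results of these data known. Alternatives covered normalization, centring, filters, variance models, the samples fitted, a replicate block and each array left out, and a fold threshold of 2, protein-coding counts and counts without X, the latter 3 chosen after seeing the data. Replicate numbers are not known to pair the lines: deviations of same-numbered 7-day arrays correlated at -0.085, 0.008 and -0.096.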

Additional observations from a re-analysis of the deposited data

Results flagged for a closer look

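The difference between the lines changed with time by a direct test. It differed between 7 days and no irradiation for 1366 clusters and between 7 days and 1 day for 170. These counts were 588 to 1720 and 54 to 528 with 1 array left out, and 639 and 7 with only the 12 arrays compared. Upward changes from untreated to 7 days were largest, among the genes called at 7 days and above the dim limit, for Ermn (2.02), Slc7a8 (1.94), Bank1 (1.89), Upk1b (1.83), Cd36 (1.80), Rgs13 (1.74), Zfp979 (1.69) and the predicted gene Gm15352 (1.69), with adjusted p-values by limma from 0.000177 to 0.00831. For Rgs13, Slc7a8 and Zfp979 the change narrowed a difference in which USFKD was the lower line.

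The largest downward changes were those of snoRNA genes and 5S copies or pseudogenes: Gm26175 (-2.64), Gm22980 (-2.57), Snord73a (-2.48), n-R5s210 (-2.46), Gm26457 (-2.13), n-R5s88 (-2.11), n-R5s25 (-2.05) and Snord61 (-2.05), with adjusted p-values by limma from 0.00964 to 0.0491. Gm22980 overlapped between the lines at 7 days, at 13.86, 14.51 and 14.88 in sshRNA and 14.11, 13.18 and 12.55 in USFKD. The change of Snord61 lost its call under 14 of 22 alternatives that of n-R5s88 under 13 and that of Gm26457 under 7.

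Outside the transcript clusters, 539 of 6732 control rows were called for the 7-day difference, 313 higher and 226 lower in USFKD. Without irradiation 226 control rows were called and at 1 day 122.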

How the results depend on the processing

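Of 155 named genes under 16 alternatives, 2402 of 2480 values stayed on the same side of the threshold with the same direction, 77 lost the call, 1 gained it and none reversed. For the 19 named changes from untreated under 22 alternatives, 36 of 418 values lost the call and none reversed. Fitting only the 6 arrays of the comparison left 996 clusters, 715 genes and 665 protein-coding genes higher and 1283 clusters and 847 genes lower, and with only 12 arrays 639 clusters differed from untreated and 7 from 1 day; these fits have fewer residual degrees of freedom. A fold threshold of 2 left 541 and 778 clusters, 317 and 542 genes and 280 and 236 protein-coding genes. Centring each array on the median of its bright clusters gave 885 protein-coding genes higher and 878 lower in place of 1017 and 739.

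The replicate block left 107 clusters for the change from 1 day and moved no other count by over 1.5 times. Leaving out 1 array gave 588 to 1720 clusters for the change from untreated and 54 to 528 from 1 day, lowest without USFKD 7d IR replicate 2 and highest without USFKD 7d IR replicate 1 for the latter. For the 7-day difference it gave 1595 to 2169 clusters higher and 1981 to 2743 lower, 1057 to 1230 genes higher and 1219 to 1740 lower, and 948 to 1093 protein-coding genes higher and 668 to 904 lower.

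Among the lists, fitting only the 6 arrays also lowered the germinal centre decreases from 5 to 3, adhesion decreases from 3 to 1, increases of interferon-stimulated genes from 4 to 1, of replication genes from 6 to 3 and of lipid synthesis from 5 to 2, and ribosome biogenesis decreases from 3 to 1. List counts under the alternatives and the fold threshold of 2 were chosen after seeing the data. The level of dim clusters near 4.66 limits what can be called there, as for Usf1.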
